A study of Drosophila melanogaster with 10 samples.

Results

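The transgenic hairpin lines fru330035 and fru105005 both target the transcription factor gene fruitless (fru), and the comparison here sets the oenocyte RNA of the one line directly against that of the other, without the control libraries in the test. Its members are all genes that passed a filter on low counts in these 4 libraries, 11738 of the 13986 genes in the deposited table, while the remaining 2248 genes were not tested. It asks how far lines that share a target differ from each other. The series holds 5 genotypes of Drosophila melanogaster with 2 libraries each, 10 libraries in all. Every genotype carried the oenocyte driver prom-E800-Gal4, which the study calls oeno-Gal4. The fru330035 males carried the driver with the Fru-RNAi transgene of Vienna stock VDRC330035 (oeno>fru IR in the study), and the fru105005 males carried it with that of Vienna stock VDRC105005 (oeno>fru IR-3). The control males carried the driver with UAS-mCD8-GFP and no hairpin. Flies were kept at 25°C and 60% relative humidity until eclosion and then at 29°C for 7 days, and oenocytes were dissected for polyadenylated RNA. Each line is a single transgenic stock, so a difference between the lines combines the hairpin, its insertion and the stock's genetic background, which cannot be told apart here. The number of animals behind each library was not given in the sources used here.

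Oenocytes are large cells beneath the abdominal cuticle that make the cuticular hydrocarbons of insects, which limit water loss and serve as pheromones. Fatty acids are built from acetyl-CoA by acetyl-CoA carboxylase and fatty acid synthases, lengthened by elongases, given double bonds by desaturases, reduced by acyl-CoA reductases and finally converted to hydrocarbons by the oenocyte cytochrome P450 Cyp4g1. In RNA interference with the Gal4/UAS system, Gal4 made in the driver's cells turns on a hairpin RNA, which is cut into small RNAs that direct the destruction of the matching transcript. Sets of lines against one gene are commonly used together because a hairpin can also act on other transcripts.

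The targeted gene did not stand at a like level in the lines. Levels are given throughout as the deposited TPM values (a share of transcripts, scaled by gene length) after the scaling across libraries called TMM, the trimmed mean of M-values method. For fru (FBgn0004652, chromosome 3R, minus strand, 18414273 to 18545586 in the BDGP6 annotation), the level was 3.66 and 3.55 in the fru330035 libraries, 1.60 and 1.62 in the fru105005 libraries and 2.26 and 2.34 in control. The libraries labelled fru330035 thus lay above both control libraries and those labelled fru105005 below them, with no overlap. Between the lines, 9202 of the 11738 tested genes (78.39%) did not overlap, so a lack of overlap alone does not mark a gene out. All fold changes are differences on the log2 scale, positive where the fru330035 libraries were higher. The log2 fold change of fru was 1.24 (SE 0.063), a 2.36-fold difference, with an adjusted p of 1.02e-06 from edgeR's quasi-likelihood test. Because fru in the libraries labelled fru330035 lay above control, against their label of a knockdown, directions below name libraries and not degrees of fru loss. The study reported weaker Fru antibody staining in the larval nervous system with the fru330035 stock, and staining lost in oenocytes under fru RNAi. It also measured fru by RT-qPCR in whole-body knockdowns. Those are unlike measures to a gene count, so the level here does not by itself show that the knockdown failed. A gene count does not separate fru isoforms, and the reads that a hairpin transcript may add to its target were not separated either.

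The 4 libraries held between 29300900 and 46840805 counts on genes. With 2 libraries per line the smallest p of an exact two-sided permutation test on one gene is 0.333, and each p comes from a model whose dispersion is shared across genes. Since the sources do not say that replicates came from separate dissections, p-values measure the spread between these libraries. Marker levels differed between the lines. The summed level of 12 oenocyte markers was 15720.0 and 15720.0 in the fru330035 libraries and 90090.0 and 88800.0 in the fru105005 libraries. Most of that difference was Cyp4g1, at 8968 and 8951 in the fru330035 libraries and 80361 and 79109 in the fru105005 libraries. Of the 12 markers, 10 were called lower in fru330035 and none higher, but 8 lower and 3 higher with library size alone. Cyp4g1 alone took 2.05% and 2.04% of all counts in the fru330035 libraries, 14.45% and 14.26% in the fru105005 libraries, and 10.53% and 10.56% in control. In dissected tissue, fewer cells of a type and less RNA per cell cannot be told apart. The summed level of 39 gut markers, 38 of them tested, was 299 and 304 in the fru330035 libraries but 601 and 1487 in the fru105005 libraries. Here and below, sums cover all listed members in the deposited table, tested or not. Replicate 2 of fru105005 stood apart from replicate 1, and the gut list and its 2 members named below are given with and without that library.

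**Figure D1:**
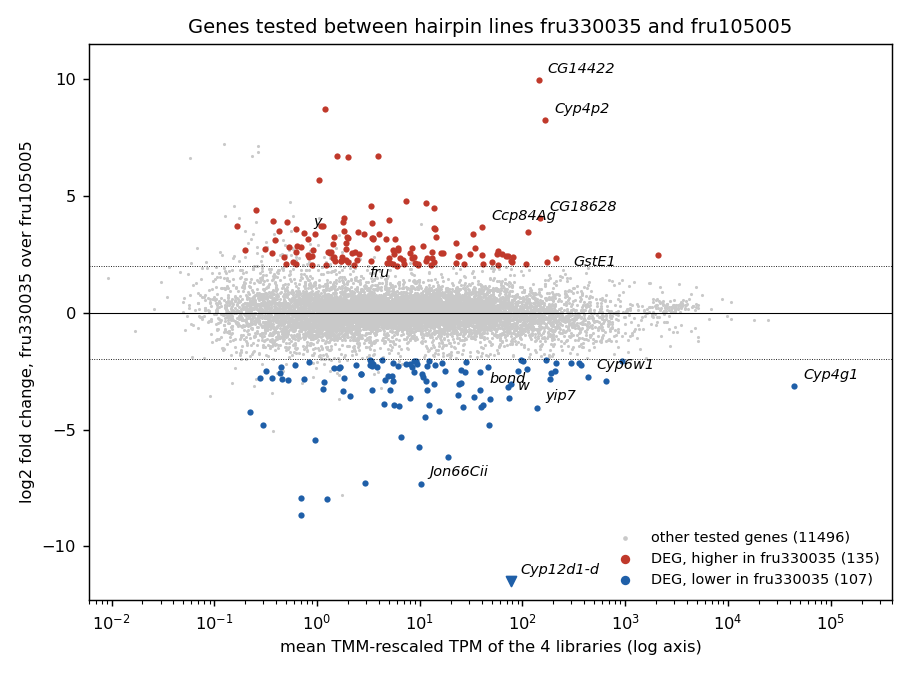
Log2 fold change of the fru330035 over the fru105005 libraries (vertical axis) against the mean TMM-rescaled TPM of the 4 libraries (horizontal, log axis), 1 point per tested gene, with dotted lines at 4-fold. Of 11738 tested genes, 135 higher (red) and 107 lower (blue) passed the DEG thresholds. Cyp4g1 had the highest level and Cyp12d1-d, with no count in the fru330035 libraries, is drawn at the lower edge as a triangle.

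A gene was counted as a differentially expressed gene (DEG) where the lines differed 4-fold or more with an adjusted p no higher than 0.001, and as called at an adjusted p under 0.05. Of the 11738 genes, 242 were DEGs (2.06%), 135 of them higher in the fru330035 libraries (1.15%) and 107 lower (0.912%). Called were 6640 genes (56.6%), 3360 higher (28.6%) and 3280 lower (27.9%), so more than every other gene differed and a list with a like share of called members does not stand out. Most of these differences were small. Among called genes, 1896 higher and 1890 lower ones differed by less than 1.5-fold, while 708 higher and 620 lower ones differed at least 2-fold. The split between directions rests on the scaling between libraries. When only library size was used, the median log2 fold change of all genes moved from 0.01 to 0.33, and 6264 genes were called higher and 1516 lower in place of 3360 and 3280, so changes are read below against the median of all genes. The DEGs were 219 higher and 72 lower under that scaling. Leaving out 1 library also moved the counts. DEGs higher in fru330035 numbered 88 without replicate 1 of fru330035, 84 without its replicate 2 and 204 without replicate 2 of fru105005, and lower DEGs numbered 202 without replicate 1 of fru105005. Of the DEGs, 67 higher and 72 lower ones passed in all 4 such fits. Leaving out Cyp4g1 from the library totals, an alternative added after seeing the data, gave a median of 0.14.

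The control libraries, which took no part in the test, lay nearer to fru105005 for 120 of the 135 DEGs higher in fru330035 and nearer to fru330035 for 15. Of the 107 DEGs lower in fru330035, 64 had control nearer to fru330035 and 43 nearer to fru105005. Over all tested genes, control lay nearer to fru105005 in 53.8%. For 72 of the higher and 82 of the lower DEGs the control mean fell between the lines, and for 63 and 25 it fell outside them.

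Many genes of hydrocarbon synthesis, bond and Cyp4g1 by the largest folds, were lower in the fru330035 than in the fru105005 libraries. All 9 tested genes of fatty acid synthesis and its SREBP regulators were called, 8 of them lower and 1 higher, against 27.9% and 28.6% of all genes, with a median log2 fold change of -0.94 beside 0.01 over all genes. Acetyl-CoA carboxylase (ACC) stood at 167 and 165 in the fru330035 libraries and 373 and 371 in the fru105005 libraries, a log2 fold change of -1.15 (SE 0.02, edgeR adjusted p = 2.47e-09). The fatty acid synthase FASN2, the oenocyte enzyme for methyl-branched hydrocarbons, stood at 334 and 341 in the fru330035 libraries, 783 and 798 in the fru105005 libraries and 488 and 487 in control, and its log2 fold change was -1.21 (SE 0.022). FASN1, the widely used synthase, stood at 214 and 212 in the fru330035 libraries and 490.1 and 487 in the fru105005 libraries, with a log2 fold change of -1.18 (SE 0.021), and FASN3 at 221 and 216 in the fru330035 libraries and 346 and 333 in the fru105005 libraries, with -0.62 (SE 0.027). In each of these genes both fru330035 libraries lay below both fru105005 libraries, while 78.39% of all tested genes did not overlap between the lines. ATPCL and AcCoAS, which supply acetyl-CoA, had log2 fold changes of -0.97 (SE 0.019) and -0.94 (SE 0.019). The transcription factor SREBP and its escort SCAP differed little, with log2 fold changes of -0.15 and -0.33. Under library size alone that of SREBP turned to 0.17 and that of SCAP was -0.01 (adjusted p = 0.74 from edgeR). S2P, the protease that frees SREBP, was the member called higher, at 0.21, with an adjusted p of 0.068 from edgeR without replicate 2 of fru330035.

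Elongases did not move together. Of 18 tested elongase genes 8 were called lower and 6 higher, with a median of 0.01. The largest difference was in bond, an elongase known from male fertility and from the ejaculatory bulb, whose level was 7.46 and 7.11 in the fru330035 libraries, 71.2 and 69.9 in the fru105005 libraries and 12.5 and 12.1 in control, a 9.91-fold difference and a log2 fold change of -3.31 (SE 0.049, edgeR adjusted p = 1.26e-09). The ejaculatory bulb genes Ebp and EbpII were also higher in the fru105005 libraries, at 29.1 and 29.4 and 77.9 and 77.5 beside 1.55 and 1.59 and 5.01 and 4.75, and their part in the difference of bond was not tested. CG16904, a member of the elongase cluster on 3R, stood at 643 and 648 in the fru330035 libraries, 2558 and 2515 in the fru105005 libraries and 1541 and 1568 in control, with a log2 fold change of -1.95 (SE 0.021, edgeR adjusted p = 3.23e-10). Its neighbours CG9458 and CG9459 had log2 fold changes of -1.07 (SE 0.026) and -0.996 (SE 0.027), while CG8534 of the same cluster had 0.70 (SE 0.055) and eloF, the female pheromone elongase, stood at 34.7 and 36.0 in the fru330035 libraries and 34.0 and 33.6 in the fru105005 libraries with 0.08 (SE 0.052) and an adjusted p of 0.21 from edgeR. Under library size alone eloF was called higher, at 0.40 (adjusted p = 0.000195 from edgeR), and without Cyp4g1 in the totals at 0.21. With TMM the cluster thus held members called lower, a member called higher and a member not called. CG6660, CG18609 and CG30008 were called lower, with log2 fold changes of -1.11, -0.66 and -0.64, and CG30008 was the most abundant elongase at 3669.9 and 3723 in the fru330035 libraries and 5846 and 5826 in the fru105005 libraries. Called higher were CG17821 at 1.16, CG33110 at 0.85, Elovl7 at 0.46, CG31522 at 0.29 and CG31523 at 0.21. Baldspot was called lower at -0.28, which became 0.04 under library size alone. CG5326, CG31141 and Elo68alpha had log2 fold changes of 0.00, 0.02 and 0.49 and were not called.

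The enzymes that complete each elongation round were split as well, with 2 called higher and 2 lower among the 5 genes of that list, but 4 and 1 with library size alone. The dehydratase Hacd2 stood at 55.3 and 58.0 in the fru330035 libraries and 27.8 and 28.9 in the fru105005 libraries, a log2 fold change of 1.02 (SE 0.044), and the more abundant Hacd1 had 0.27 (SE 0.021). The enoyl reductase Sc2 had -0.46 (SE 0.018). The ketoacyl reductase spidey had -0.20 (SE 0.02) with TMM and 0.12 with library size alone, so its direction depended on the scaling. The list also held kar, the annotation's symbol of a transporter gene, which had -0.06 (SE 0.043) and was not called. Of 8 desaturases 3 were called lower and 3 higher. Desat1, which places the double bond of the male pheromone precursors, stood at 1643 and 1649.7 in the fru330035 libraries, 2394 and 2350.0 in the fru105005 libraries and 2279 and 2286 in control, a log2 fold change of -0.52 (SE 0.022, edgeR adjusted p = 4.02e-07). CG15531 stood at 299.8 and 298 in the fru330035 libraries and 711 and 704 in the fru105005 libraries, with -1.22 (SE 0.019). The female desaturase Fad2 was at the low levels of 1.72 and 1.80 in the fru330035 libraries and 5.03 and 5.83 in the fru105005 libraries, with -1.60 (SE 0.15). CG8630, CG9743 and the sphingolipid desaturase ifc were called higher, at 0.54, 0.45 and 0.33, though CG8630 had an adjusted p of 0.085 from edgeR without replicate 1 of fru330035 and 0.13 without its replicate 2. Desat2 and CG9747 were not called, at -0.43 and 0.00, and their signs turned when 1 library was left out.

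Of 16 tested acyl-CoA reductases, which turn long chain acyl-CoA into the alcohol or aldehyde, 7 were called lower and 7 higher. The members with the largest falls were CG14893, at 5.22 and 5.09 in the fru330035 libraries and 31.3 and 28.4 in the fru105005 libraries and a log2 fold change of -2.51 (SE 0.071), Sgp, at 351 and 353 in the fru330035 libraries and 1528 and 1511 in the fru105005 libraries and -2.08 (SE 0.02), and CG10096, at 41.3 and 40.4 in the fru330035 libraries and 190.4 and 186 in the fru105005 libraries and -1.89 (SE 0.021). FarO, an oenocyte reductase, stood at 386 and 389.9 in the fru330035 libraries, 897 and 923 in the fru105005 libraries and 647 and 654 in control, with -1.21 (SE 0.019). CG8303 was a DEG in the other direction, at the low levels of 2.38 and 2.52 in the fru330035 libraries and 0.494 and 0.593 in the fru105005 libraries, with 2.21 (SE 0.17). Control lay between the lines for FarO, Sgp and CG10096.

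The last step held the most abundant gene of the pathway. Cyp4g1, the P450 that releases hydrocarbons from long chain aldehydes, stood at 8968 and 8951 in the fru330035 libraries, 80361 and 79109 in the fru105005 libraries and 53859 and 54203 in control, an 8.77-fold lower level in fru330035 than in fru105005 and a log2 fold change of -3.13 (SE 0.043, edgeR adjusted p = 9.07e-10). The replicates of a line lay close together and the lines did not overlap, as was so for 78.39% of all tested genes. With library size alone the log2 fold change of Cyp4g1 was -2.81, and over all alternatives its sign and call were kept. Of the 5 genes of this step 4 were called lower and none higher, but 3 lower and 1 higher with library size alone. The electron donors differed by smaller amounts, Cpr at 2167 and 2134 in the fru330035 libraries and 2819.9 and 2773 in the fru105005 libraries with -0.38 (SE 0.024) (under library size alone, -0.06 and not called), Cyt-b5 at 3145 and 3224 in the fru330035 libraries and 5488 and 5511 in the fru105005 libraries with -0.77 (SE 0.02), and Cyt-b5-r at 372 and 375 in the fru330035 libraries and 807 and 808 in the fru105005 libraries with -1.08 (SE 0.017). Cyp4g15, a relative of Cyp4g1 known from the nervous system, stood at 4.87 and 5.09 in the fru330035 libraries and 5.29 and 5.48 in the fru105005 libraries and was not called (adjusted p = 0.29 from edgeR).

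**Figure D2:**
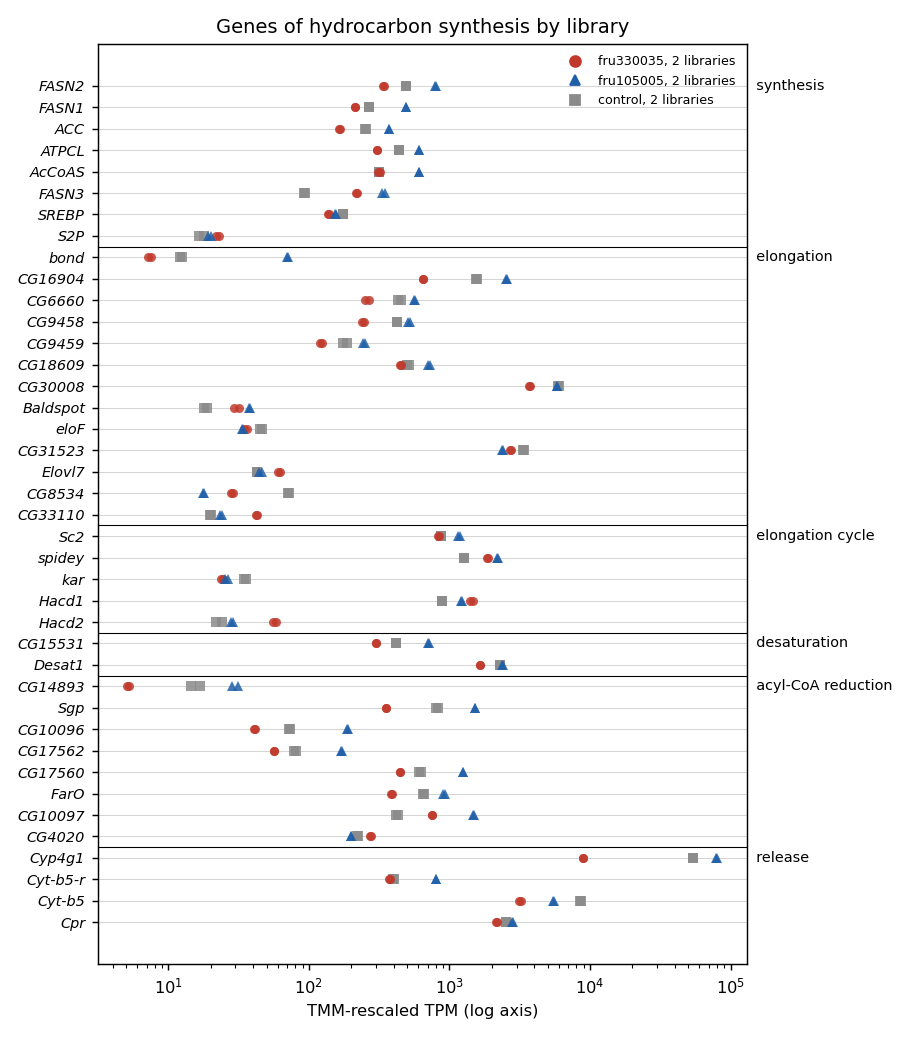
TMM-rescaled TPM (log axis) of genes of hydrocarbon synthesis that reached 20 in at least 1 of the 4 libraries compared, grouped by step, with 1 symbol per library (fru330035 red circles, fru105005 blue triangles, control grey squares). Most fru330035 symbols lie left of the fru105005 symbols, farthest for bond and Cyp4g1, while those of eloF nearly coincide and those of Hacd2 and CG33110 lie to the right.

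Lipid handling genes around this pathway leaned lower with TMM scaling. Of 11 acyl-CoA synthetases 6 were called lower and 2 higher, with a median of -0.72, but 4 lower and 3 higher with library size alone. The synthetase hll stood at 0.969 and 0.532 in the fru330035 libraries and 4.97 and 4.22 in the fru105005 libraries, a log2 fold change of -2.62 (SE 0.25, edgeR adjusted p = 4.28e-05), and bgm, a very long chain acyl-CoA synthetase, at 51.0 and 52.3 in the fru330035 libraries and 95.9 and 95.7 in the fru105005 libraries, with -0.87 (SE 0.022). Acsf2 had -1.03 (SE 0.061). Of 17 lipid storage and lipoprotein genes 9 were called lower and 3 higher, but 7 in each direction with library size alone. The lipophorin receptor LpR1 stood at 73.4 and 74.7 in the fru330035 libraries, 224 and 223 in the fru105005 libraries and 139 and 138 in control, a log2 fold change of -1.56 (SE 0.019, edgeR adjusted p = 5.40e-10). Lsd-1, a lipid droplet coat protein, stood at 182 and 184 in the fru330035 libraries, 331 and 332 in the fru105005 libraries and 839 and 842 in control, with -0.83 (SE 0.017), so both lines lay far below control. Lpin and mdy, enzymes of triglyceride synthesis, had -0.89 (SE 0.023) and -0.59 (SE 0.045). Among 22 peroxisome and beta-oxidation genes 14 were called lower and 4 higher with TMM, but 4 lower and 11 higher with library size alone. The exception with the largest rise was catalase (Cat), which stood at 5476 and 5569 in the fru330035 libraries, 3224 and 3279.7 in the fru105005 libraries and 1879 and 1870.4 in control, a log2 fold change of 0.79 (SE 0.024, edgeR adjusted p = 4.68e-08).

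Metabolic regulators were mostly lower with TMM scaling. Hnf4, a nuclear receptor known to control fatty acid breakdown and hydrocarbon synthesis, stood at 98.1 and 99.3 in the fru330035 libraries, 183 and 187 in the fru105005 libraries and 169.6 and 168 in control, a log2 fold change of -0.84 (SE 0.017, edgeR adjusted p = 4.33e-09). Both fru330035 libraries lay below all 4 other libraries. The hypoxia factor sima, at 61.0 and 62.6 in the fru330035 libraries and 132 and 135 in the fru105005 libraries with -1.14 (SE 0.021), and the sugar-responsive factor sug, at 27.3 and 27.7 in the fru330035 libraries and 55.5 and 59.6 in the fru105005 libraries with -1.04 (SE 0.046), were lower as well, and Hr38 was higher at the low levels of 0.587 and 0.568 in the fru330035 libraries and 0.138 and 0.247 in the fru105005 libraries, with 1.64 (SE 0.24). Of the 11 tested metabolic nuclear receptors and regulators, 7 were called lower and 1 higher, with a median of -0.30 that became 0.03 under library size alone. The oenocyte identity factor salr, a spalt zinc finger protein, stood at 4.61 and 4.54 in the fru330035 libraries and 17.4 and 17.8 in the fru105005 libraries, with -1.91 (SE 0.041).

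Among the 15 DEGs with the largest rise in the fru330035 libraries, several were close to absent from the fru105005 and control libraries. CG14422 stood at 284 and 291 in the fru330035 libraries, 0.386 and 0.178 in the fru105005 libraries and 0.495 and 0.0680 in control, a log2 fold change of 9.94 (SE 0.078, edgeR adjusted p = 9.13e-11) that was 10.63 without replicate 1 of fru105005. Cyp4p2, a cytochrome P450 on 2R, stood at 336 and 329.7 in the fru330035 libraries, 1.30 and 0.919 in the fru105005 libraries and 1.60 and 1.23 in control, with 8.23 (SE 0.057, edgeR adjusted p = 8.81e-11). Both genes were thus abundant in the fru330035 libraries and below 2 in the 4 other libraries. CG14422 overlaps kirre and Cyp4p2 overlaps hig in the annotation, and without stated strand use reads from overlapping genes cannot be told apart. The same limit holds for CG13133, Spn75F, CG31832, CG43680 and prom among the rises named below, and for Dscam4 among the falls, which each overlap another gene. The C-type lectin gene lectin-29Ca had no count in the fru105005 libraries and stood at 2.57 and 2.19 in the fru330035 libraries, at least 12.7-fold higher at a floor of 3 counts per library. CG42521, CG43149, CG13133 and the serpin gene Spn75F each had 1 count or fewer per fru105005 library and levels between 2.04 and 7.93 in the fru330035 libraries, with ratios of library-scaled counts of 124 (95% interval from counting 22.1 to 4936), 121 (21.5 to 4812), 112 (30.8 to 929) and 55.6 (15.2 to 462).

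The other rises in this set were in genes with measurable counts on both sides. Obp56a, an odorant-binding protein gene, stood at 24.4 and 28.3 in the fru330035 libraries and 1.34 and 1.05 in the fru105005 libraries, a log2 fold change of 4.46 (SE 0.17, edgeR adjusted p = 1.79e-07). CG18628 stood at 272 and 287 in the fru330035 libraries and 17.6 and 16.6 in the fru105005 libraries, with 4.05 (SE 0.069, edgeR adjusted p = 2.18e-09), but at 1141 and 1124 in control, so both lines lay far below control and fru105005 farthest. CG31832, CG43680, CG14191, prom (the prominin gene) and CG31872 had log2 fold changes of 4.77, 4.67, 4.58, 4.38 and 4.06, that of prom resting on 1 and 4 counts in the fru105005 libraries and lying between 3.62 and 5.73 when either was left out. Acp26Ab, an accessory gland peptide gene, stood at 9.59 and 9.25 in the fru330035 libraries and 0.138 and 1.11 in the fru105005 libraries, with 3.96 (SE 0.5). Its fru105005 replicates were far apart, and the log2 fold change was 3.05 without replicate 1 of fru105005 and 6.14 without its replicate 2.

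The largest fall was that of Cyp12d1-d, a P450 of xenobiotic response. It had no count in either fru330035 library and stood at 158 and 154 in the fru105005 libraries and 26.2 and 25.1 in control, at least 3071-fold lower in fru330035 at a floor of 3 counts per library. Its near-identical copy Cyp12d1-p, named after its values were seen, stood at 11.1 and 11.2 in the fru330035 libraries, 66.9 and 66.4 in the fru105005 libraries and 17.7 and 16.9 in control, with a log2 fold change of -2.54 (SE 0.038, edgeR adjusted p = 1.30e-09). RSEM divides reads between such copies, so the levels of either copy are uncertain. CG42782 had 2 counts in each fru330035 library, a ratio of 58.2 (95% interval from counting 22.3 to 217). Dscam4, a cell adhesion gene of the Dscam family, stood at 0.0530 and 0.0360 in the fru330035 libraries and 1.91 and 1.79 in the fru105005 libraries, with -5.43 (SE 0.19, edgeR adjusted p = 1.11e-07). CG43156 and CG42876 had log2 fold changes of -4.80 and -3.95.

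Of the 15 largest falls, 4 were in serine protease genes, of which Jon66Cii and yip7 belong to the gut list. Jon66Cii stood at 0.133 and 0.126 in the fru330035 libraries and 30.3 and 10.2 in the fru105005 libraries, yip7 at 14.2 and 16.5 in the fru330035 libraries and 316 and 205 in the fru105005 libraries, Phae2 at 0.756 and 0.748 in the fru330035 libraries and 14.5 and 9.21 in the fru105005 libraries and CG10477 at 1.16 and 1.68 in the fru330035 libraries and 31.9 and 14.0 in the fru105005 libraries, and in each the fru105005 replicates differed while both exceeded the fru330035 libraries. Their log2 fold changes were -7.32 (SE 0.72), -4.06 (SE 0.21), -3.98 (SE 0.27) and -3.96 (SE 0.41). Without replicate 2 of fru105005 those of Jon66Cii and yip7 were -7.90 and -4.34, and without its replicate 1 those of Jon66Cii and CG10477 were -6.32 and -3.22. The genes CG4734, CG7298 and CG32284 had log2 fold changes of -6.17, -5.30 and -4.46. Jon66Cii and yip7 were higher in replicate 1 of fru105005, although the summed gut level was higher in replicate 2, so they did not follow that sum. CG18853 stood at 5.75 and 0.703 in the fru330035 libraries and 50.04 and 49.2 in the fru105005 libraries, a log2 fold change of -4.04 (SE 0.55, edgeR adjusted p = 0.00041) that moved to -6.11 without replicate 1 of fru330035 and -3.08 without replicate 2. It overlaps the proteasome gene Prosalpha1R, and reads of the pair cannot be told apart without strand.

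**Figure D3:**
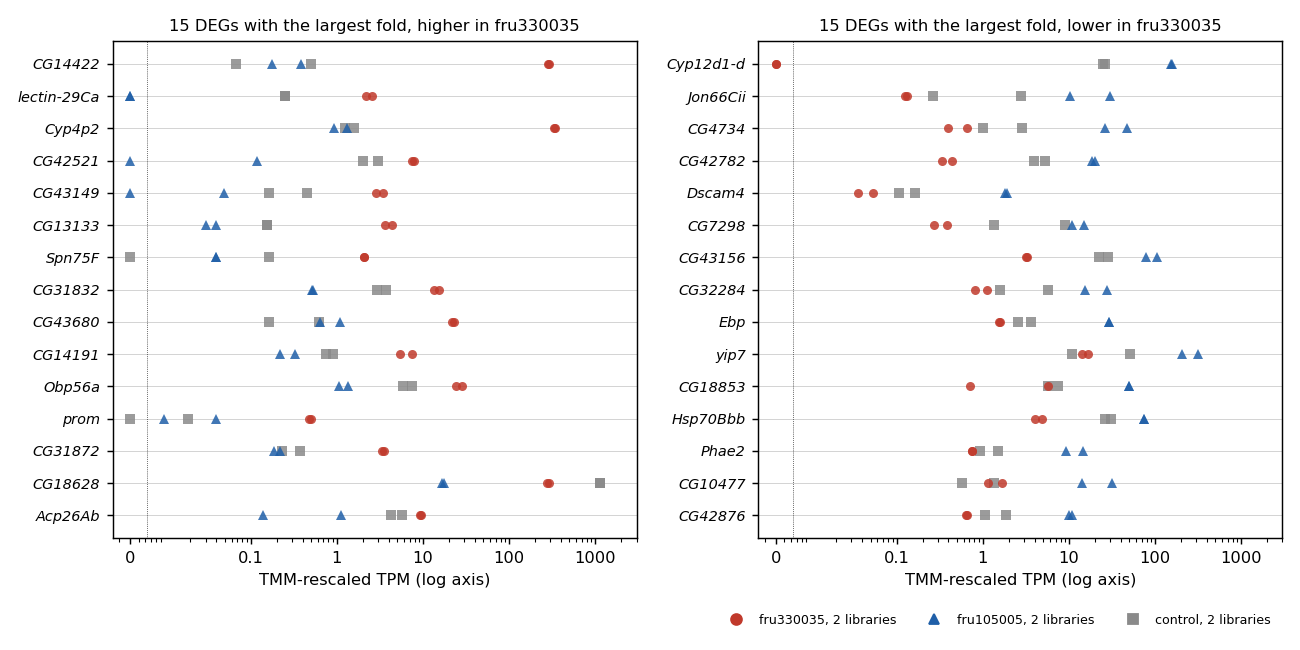
TMM-rescaled TPM (log axis, with 0 drawn at the left of the dotted line) of the 15 DEGs with the largest rise and the 15 with the largest fall, 1 symbol per library (fru330035 red circles, fru105005 blue triangles, control grey squares). In every one of the 30 genes the fru330035 and fru105005 symbols are apart. The lines were likewise apart in all 135 higher and 107 lower DEGs and in 78.39% of all tested genes. For CG14422 and Cyp4p2 control lies beside fru105005.

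Detoxification enzymes differed in both directions. Of 80 tested P450 genes 44 were called lower and 17 higher, with a median of -0.29 that became 0.03 with library size alone, where 27 were called lower and 29 higher. Of the 7 P450 DEGs lower in fru330035, Cyp6a8 stood at 14.6 and 13.9 in the fru330035 libraries, 131 and 129 in the fru105005 libraries and 25.7 and 25.0 in control, with a log2 fold change of -3.17 (SE 0.035, edgeR adjusted p = 3.93e-10). Cyp6w1 and Cyp6a2, named after their values were seen, had -2.73 (SE 0.02) and -2.43 (SE 0.052). For Cyp6a8 and Cyp6w1 control lay nearer to the fru330035 than to the fru105005 libraries. Glutathione S-transferases, which conjugate glutathione to toxic compounds, were called higher in 14 and lower in 13 of 30, but in 18 and 9 with library size alone. GstE1 stood at 381 and 400.2 in the fru330035 libraries, 123 and 126 in the fru105005 libraries and 132 and 136 in control, a log2 fold change of 1.68 (SE 0.026, edgeR adjusted p = 1.55e-09), and GstD10 at 25.2 and 24.1 in the fru330035 libraries and 7.30 and 8.36 in the fru105005 libraries, with 1.68 (SE 0.085). GstD5 and GstD7, at low levels, had 2.26 (SE 0.28) and -3.37 (SE 0.32). Of 23 UDP-glycosyltransferases 12 were called lower and 5 higher, with a median of -0.75 and 12 lower under library size alone also. Ugt49B1 stood at 22.2 and 23.9 in the fru330035 libraries and 82.1 and 80.9 in the fru105005 libraries, with -1.80 (SE 0.04), Ugt35C1 had -1.42 (SE 0.062) and Ugt49C1 -1.24 (SE 0.075). The fru105005 replicates of Ugt37A2 differed, at 4.72 and 1.34, with -3.70 (SE 0.66), a value that ran from -4.51 without replicate 1 of fru330035 to -2.53 without replicate 1 of fru105005.

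Protein turnover and stress genes leaned to one side. Of 48 proteasome subunits 36 were called lower in fru330035 and 1 higher, with a median of -0.76, and 30 were lower under library size alone. Core particle subunits Prosalpha7, at 349 and 363 in the fru330035 libraries, 811 and 821 in the fru105005 libraries and 573 and 586 in control with -1.18 (SE 0.019, edgeR adjusted p = 1.93e-09), and Prosalpha4, at 302 and 303 in the fru330035 libraries and 661 and 665 in the fru105005 libraries with -1.11 (SE 0.017), moved by about the same amount as Rpn3 of the regulatory lid, at 103 and 105 in the fru330035 libraries and 221 and 226 in the fru105005 libraries with -1.08 (SE 0.019). In these 3 members control lay between the lines. Of 26 heat shock and chaperone genes 21 were called lower and 4 higher, with a median of -1.15, the lowest of the lists of function. Hsp70Bbb stood at 3.99 and 4.83 in the fru330035 libraries, 74.2 and 73.4 in the fru105005 libraries and 30.9 and 25.9 in control, with -4.03 (SE 0.066, edgeR adjusted p = 1.78e-09), Hsp70Bc at 16.8 and 16.2 in the fru330035 libraries and 137 and 143 in the fru105005 libraries, with -3.06 (SE 0.03), and Hsp70Ba at 1.97 and 2.98 in the fru330035 libraries and 14.6 and 15.4 in the fru105005 libraries, with -2.56 (SE 0.15). Hsp70Aa had -2.24 (SE 0.26). The inducible Hsp70 copies are near-identical, so their division by RSEM is uncertain, but each tested copy was lower in both fru330035 libraries. Genes of folding in the endoplasmic reticulum were mixed, 7 called higher and 5 lower of 15, but 12 and 3 with library size alone. The nucleotide exchange factor Sil1 stood at 126 and 128 in the fru330035 libraries, 27.0 and 29.0 in the fru105005 libraries and 47.5 and 47.6 in control, with 2.20 (SE 0.032, edgeR adjusted p = 1.12e-09). The translocon genes Sec61alpha and Sec61beta had -1.38 (SE 0.017) and -0.88 (SE 0.02), and CaBP1, a disulfide isomerase, 0.48 (SE 0.018).

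Cytosolic ribosomal protein genes were mostly higher, by small amounts. Of 91 tested cytosolic ribosomal protein genes 75 were called higher and 4 lower, with a median of 0.26 beside 0.01 over all genes. RpL39 had the largest difference, at 7004 and 7110.4 in the fru330035 libraries and 4364 and 4127 in the fru105005 libraries with 0.76 (SE 0.032). RpS27 had 0.59 (SE 0.019). The list also held RpL24-like, named as a relative of a ribosomal protein, with 0.61 (SE 0.021). For RpL39 and RpS27 control lay between the lines. Of 73 mitochondrial ribosomal proteins 15 were called higher and 11 lower, a share of 35.6% beside 56.6% over all genes, but 56 were called higher and 1 lower with library size alone. Of 90 oxidative phosphorylation genes 55 were called lower and 6 higher, with a median of -0.23, but under library size alone the median was 0.09 with 38 higher and 20 lower. ND-30 of complex I stood at 139 and 141 in the fru330035 libraries and 281 and 287 in the fru105005 libraries, with -0.996 (SE 0.02, edgeR adjusted p = 5.15e-09).

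Most antimicrobial peptide genes were higher in the fru330035 libraries. Of 30 antimicrobial peptide genes 19 were called higher and 7 lower, with a median of 1.01. Their log2 fold changes ran from -7.81 to 3.39, and 5 were DEGs higher in fru330035 and 0 were DEGs lower. CecA2 stood at 59.5 and 61.7 in the fru330035 libraries, 6.26 and 5.51 in the fru105005 libraries and 5.59 and 6.37 in control, with 3.39 (SE 0.12, edgeR adjusted p = 1.15e-07), CecA1 at 114 and 117 in the fru330035 libraries and 21.0 and 22.1 in the fru105005 libraries, with 2.44 (SE 0.072), and CecB at 16.1 and 15.05 in the fru330035 libraries and 3.95 and 3.53 in the fru105005 libraries, with 2.07 (SE 0.19). Control lay near fru105005 for CecA2 and CecB, and below both lines for CecA1, at 12.85 and 11.9. Metchnikowin (Mtk) stood at 184 and 162 in the fru330035 libraries and 24.3 and 59.5 in the fru105005 libraries, with 2.10 (SE 0.29), and 2.84 without replicate 2 of fru105005, which lay apart from replicate 1. Of 25 recognition and signalling genes 8 were called higher and 9 lower, and 16 and 3 with library size alone. The amidase PGRP-LB, a negative regulator of the Imd pathway, stood at 89.4 and 91.4 in the fru330035 libraries and 274 and 291 in the fru105005 libraries, with -1.59 (SE 0.027, edgeR adjusted p = 2.18e-09), and the receptor PGRP-LC at 94.2 and 94.4 in the fru330035 libraries and 190.0 and 187 in the fru105005 libraries, with -0.81 (SE 0.018). PGRP-SB1 and PGRP-SD, both secreted, had 1.01 (SE 0.052) and -0.91 (SE 0.065).

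Of 34 structural cuticle protein genes 13 were called higher and 4 lower, and of 26 odorant-binding protein genes 15 were called higher and 3 lower, with medians of 0.23 and 0.57. Ccp84Ag, a cuticle protein gene, stood at 73.4 and 77.6 in the fru330035 libraries, 6.57 and 5.58 in the fru105005 libraries and 145 and 148 in control, with 3.65 (SE 0.077, edgeR adjusted p = 6.25e-09), so fru105005 lay far below both fru330035 and control. Cpr67B stood at 95.9 and 91.3 in the fru330035 libraries and 25.2 and 26.6 in the fru105005 libraries, with 1.88 (SE 0.051), Cpr47Ef had 2.35 (SE 0.18) and Cpr92F -2.22 (SE 0.17). Obp56d stood at 78.6 and 82.9 in the fru330035 libraries and 23.04 and 23.6 in the fru105005 libraries, with 1.80 (SE 0.059), next to Obp56a on 2R, while Obp56g of the same cluster, known from the ejaculatory bulb, stood at 2.64 and 1.64 in the fru330035 libraries and 22.6 and 20.3 in the fru105005 libraries, with -3.33 (SE 0.23). Obp99a had 1.30 (SE 0.15).

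**Figure D4:**
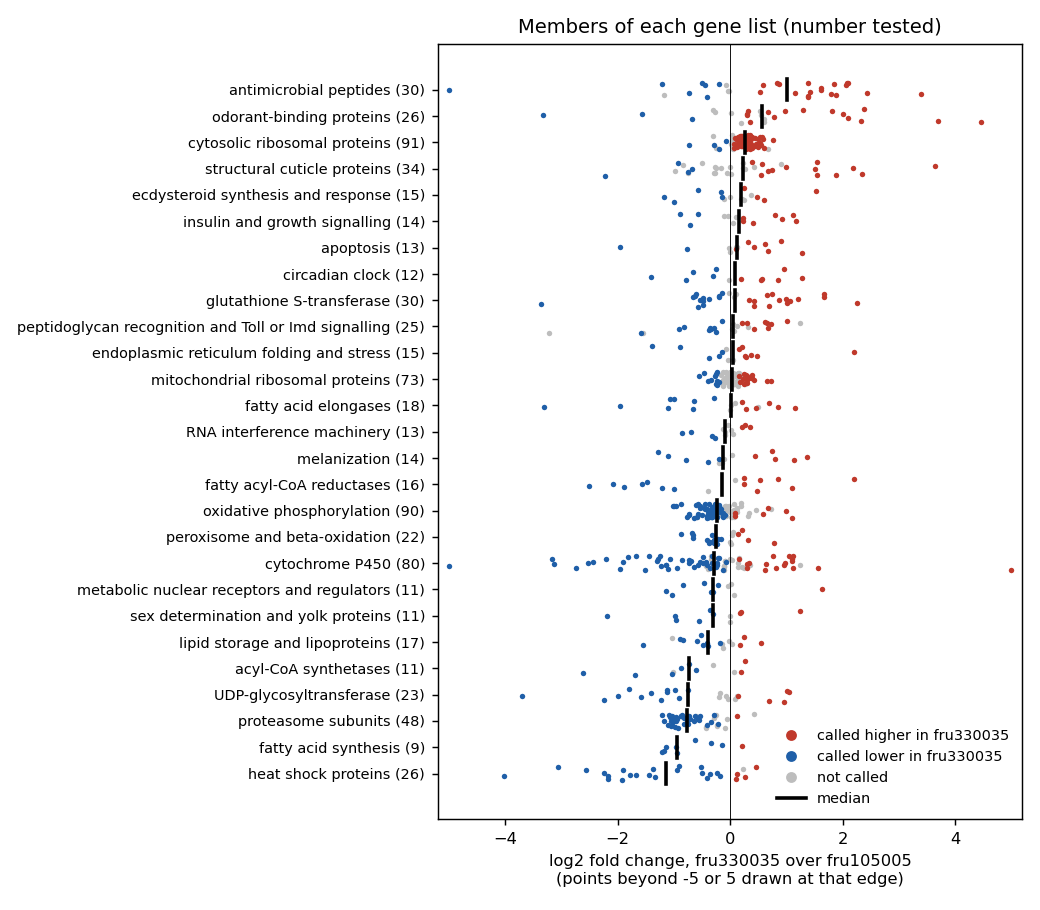
Log2 fold change of the fru330035 over the fru105005 libraries (horizontal axis) for each tested member of the gene lists of function with at least 9 tested members, tissue marker lists left out (rows, number tested in parentheses), 1 point per gene, red where called higher, blue where called lower, grey where not called, with a black bar at the median. Of the lists drawn, antimicrobial peptides have the highest median at 1.01 and heat shock proteins the lowest at -1.15, while cytosolic ribosomal proteins form a narrow group just above 0.

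Hormone, clock and growth genes were called in both directions. Of 15 ecdysteroid genes 4 were called higher and 5 lower, a share of 60.0% beside 56.6% over all genes. The gene sad, a hydroxylase of late ecdysone synthesis, stood at 416 and 425 in the fru330035 libraries, 948 and 985 in the fru105005 libraries and 3634 and 3610.1 in control, with -1.18 (SE 0.021, edgeR adjusted p = 2.94e-09), so both lines lay far below control. The nuclear receptor Hr39 stood at 6.47 and 6.28 in the fru330035 libraries and 2.16 and 1.92 in the fru105005 libraries, with 1.53 (SE 0.06), Hr4 had -1.002 (SE 0.093) and the transporter E23 0.60 (SE 0.11). Of 8 juvenile hormone genes 2 were called higher and 5 lower. The methyltransferase jhamt stood at 3.04 and 3.55 in the fru330035 libraries and 0.326 and 0.711 in the fru105005 libraries, with 2.73 (SE 0.32) (3.36 without replicate 2 of fru105005), and the epoxide hydrolases Jheh1 and Jheh3 had -1.23 (SE 0.026) and -1.43 (SE 0.075). Of 12 circadian clock genes 6 were called higher and 5 lower (7 and 3 with library size alone). The activator Clk stood at 6.24 and 6.37 in the fru330035 libraries, 17.3 and 16.4 in the fru105005 libraries and 14.3 and 13.6 in control, with -1.41 (SE 0.048, edgeR adjusted p = 9.86e-08), while its targets vri, tim and cwo stood at 104 and 109 in the fru330035 libraries and 43.3 and 45.4 in the fru105005 libraries, 66.6 and 66.1 in the fru330035 libraries and 34.9 and 34.4 in the fru105005 libraries and 52.1 and 51.4 in the fru330035 libraries and 29.2 and 29.9 in the fru105005 libraries, with 1.29 (SE 0.024), 0.95 (SE 0.02) and 0.85 (SE 0.02). With library size alone the ecdysteroid genes were 9 higher and 3 lower and the juvenile hormone genes 5 higher and 2 lower. The sources used here give no hour of dissection, so the time of day cannot be told apart from the line.

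Of 14 insulin and growth genes 7 were called higher and 3 lower. The insulin receptor gene InR stood at 8.78 and 8.48 in the fru330035 libraries and 3.98 and 3.86 in the fru105005 libraries, with 1.18 (SE 0.041, edgeR adjusted p = 1.13e-07), and Thor, the translation inhibitor 4E-BP, at 1471 and 1508 in the fru330035 libraries, 697 and 691 in the fru105005 libraries and 748 and 738 in control, with 1.12 (SE 0.018, edgeR adjusted p = 1.76e-09). ImpL2, a secreted insulin-binding protein, had 0.92 (SE 0.023) and the peptide gene Ilp6 -0.90 (SE 0.066). Of 13 apoptosis genes 7 were called higher and 2 lower. The activator hid stood at 6.91 and 7.24 in the fru330035 libraries, 3.48 and 3.02 in the fru105005 libraries and 11.6 and 10.9 in control, with 1.29 (SE 0.064), and the TNF ligand gene egr at 7.11 and 7.44 in the fru330035 libraries, 4.48 and 3.41 in the fru105005 libraries and 31.2 and 31.6 in control, with 0.90 (SE 0.12). Both lines lay below control for egr. Its receptor grnd had 0.68 (SE 0.1) and the Bcl-2 relative Debcl -0.77 (SE 0.024). Of 11 sex determination and yolk protein genes 3 were called higher, fru among them, and 6 lower, but 4 and 1 with library size alone. The gene dsx, which also acts in oenocytes, stood at 22.8 and 22.8 in the fru330035 libraries and 21.0 and 20.7 in the fru105005 libraries, with 0.19 (SE 0.029), and was named after its values were seen. The female-biased fit gene stood at 2.75 and 2.51 in the fru330035 libraries and 12.5 and 11.7 in the fru105005 libraries, with -2.18 (SE 0.18), and the yolk protein genes Yp1 and Yp2 had -0.98 (SE 0.27) and -0.97 (SE 0.3) with fru330035 replicates far apart and no call for either with DESeq2 (adjusted p = 0.10 and 0.14), and Yp2 had -1.57 without replicate 1 of fru330035. Of 6 innexins, which form gap junctions, 4 were called lower, among them ogre with -0.74 (SE 0.048), Inx2 with -0.51 (SE 0.052) and Inx7 with -0.997 (SE 0.2), and shakB was called higher with 0.28 (SE 0.053). Inx7 stood at 0.863 and 0.848 in the fru330035 libraries, 1.57 and 1.91 in the fru105005 libraries and 11.6 and 11.8 in control, below control in both lines. Of 14 melanization genes 5 were called in each direction, but 9 higher and 3 lower with library size alone, with dopa decarboxylase (Ddc) at 92.0 and 92.8 in the fru330035 libraries and 34.7 and 36.3 in the fru105005 libraries and 1.37 (SE 0.024), and the inhibitor Spn28Dc at 1.13 (SE 0.03). The prophenoloxidases of crystal cells, PPO1 and PPO2, had -1.28 (SE 0.15) and -1.11 (SE 0.15). In the RNA interference machinery 3 of 13 genes were called higher and 4 lower, 53.9% beside the 56.6% of all genes, and 9 and 2 with library size alone, with r2d2 at 0.35 and Hen1 at -0.85.

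Markers of some other tissues moved between the lines, while other marker lists were called at a share near or below that of all genes, counting either direction. Their part in the differences above was not tested. Of 16 genes of the male accessory gland and ejaculatory duct and bulb, 12 were called higher and 3 lower, 9 and 2 of them as DEGs, with a median of 2.45. Their summed level was 429 and 405 in the fru330035 libraries, 259 and 237 in the fru105005 libraries and 119 and 122 in control. Acp76A, an accessory gland serpin, stood at 1.90 and 2.33 in the fru330035 libraries and 0.0990 and 0.237 in the fru105005 libraries, with 3.71 (SE 0.37), or 4.39 without replicate 2 of fru105005. The ejaculatory bulb protein genes went the other way, with Ebp at 1.55 and 1.59 in the fru330035 libraries, 29.1 and 29.4 in the fru105005 libraries and 2.59 and 3.64 in control and -4.20 (SE 0.066, edgeR adjusted p = 1.55e-09), and EbpII at 5.01 and 4.75 in the fru330035 libraries, 77.9 and 77.5 in the fru105005 libraries and 7.38 and 10.4 in control and -3.95 (SE 0.1, edgeR adjusted p = 1.78e-08). Seminal proteins of the gland and those of the bulb thus differed in opposite directions.

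Of 18 muscle genes 12 were called higher and 3 lower, with summed levels of 3239 and 3229 in the fru330035 libraries, 1950.0 and 1943 in the fru105005 libraries and 1595 and 1599 in control. The troponin gene wupA stood at 427 and 415 in the fru330035 libraries and 207 and 206 in the fru105005 libraries, with 1.05 (SE 0.022), and the myosin light chain Mlc2 had 0.97 (SE 0.019). The flight muscle actin Act88F went the other way at low levels, 0.347 and 0.289 in the fru330035 libraries and 3.73 and 3.94 in the fru105005 libraries, with -3.57 (SE 0.2). Of 12 fat body genes 9 were called lower and none higher, but 6 lower and 2 higher with library size alone. Their summed levels were 4550.0 and 4642 in the fru330035 libraries, 9284 and 9431 in the fru105005 libraries and 4732 and 4781 in control. Alcohol dehydrogenase (Adh) stood at 3291 and 3379 in the fru330035 libraries and 6833 and 6937 in the fru105005 libraries, with -1.02 (SE 0.022, edgeR adjusted p = 6.87e-09), and transferrin (Tsf1) at 603 and 629 in the fru330035 libraries and 1228 and 1275 in the fru105005 libraries, with -1.001 (SE 0.025). The storage protein Lsp2 stood at 11.8 and 2.71 in the fru330035 libraries and 88.9 and 88.4 in the fru105005 libraries, with -3.68 (SE 0.43), which moved to -4.99 without replicate 1 of fru330035 and -2.88 without its replicate 2.

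Of 38 tested gut markers 12 were called lower and 1 higher, with a median of -1.15. That was 34.2% called, beside 56.6% of all genes in either direction. Without replicate 2 of fru105005 the median became 0.35, with 19 called higher and 11 lower. In hemocyte markers the sum, 713 and 704 against 283 and 281 (605 and 616 in control), was carried by the scavenger receptor gene crq. That gene stood at 639.5 and 632 in the fru330035 libraries and 194 and 192 in the fru105005 libraries, with 1.72 (SE 0.021, edgeR adjusted p = 6.28e-10). Of 11 hemocyte markers 2 were called in each direction, a share of 36.4% (6 higher and 1 lower with library size alone). Hml, the defining hemocyte gene, stood at 1.33 and 1.34 in the fru330035 libraries and 1.70 and 1.60 in the fru105005 libraries. Testis genes were called higher in 8 and lower in 3 of 16, with sums of 872 and 897 against 573 and 545, and 939 and 952 in control. Neuron markers were called higher in 7 of 12 (58.3%) and lower in none, with a median of 0.36, while 28.6% of all genes were called higher. Their summed levels were similar, 50.1 and 49.6 against 45.3 and 46.8. Glial markers were called lower in 3 of 6 (50%), but lower in 2 and higher in 2 with library size alone. Of 10 tested Malpighian tubule markers 4 were called higher and 1 lower (50%), with sums of 174 and 173 against 167 and 172. Of 8 trachea and epidermis markers 4 were called higher and none lower (50%), with a median of 0.45. No marker list had a member at 0 in all 4 libraries, untested members included, while tested members had passed the count filter and could not be.

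**Figure D5:**
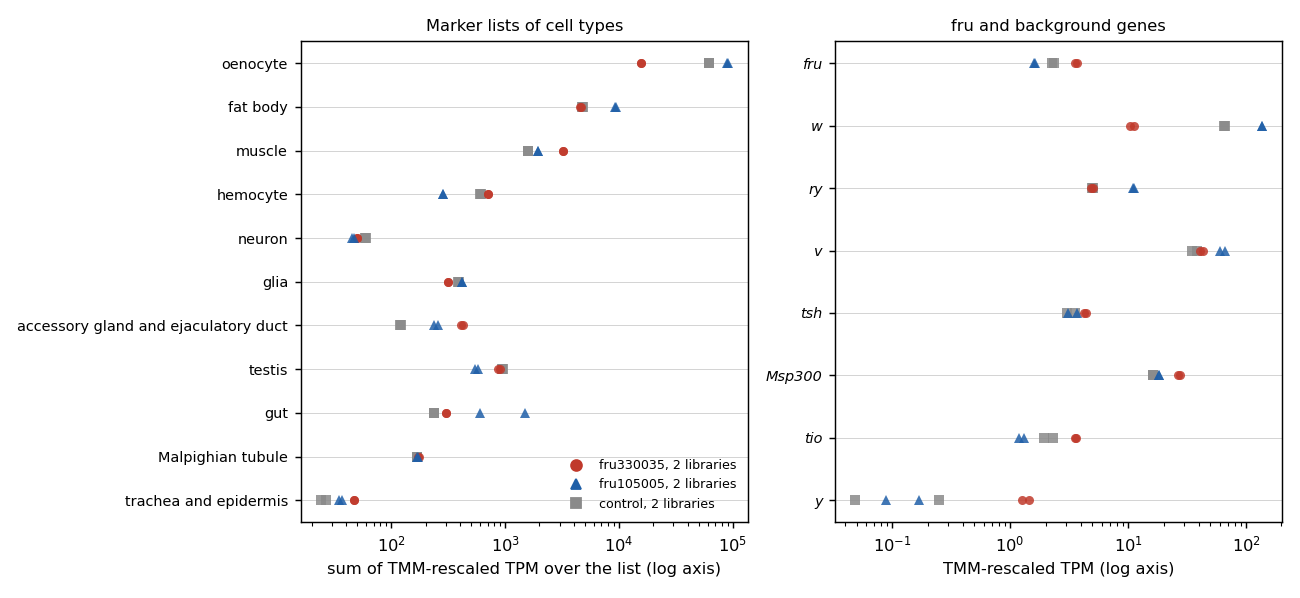
Left, summed TMM-rescaled TPM (log axis) of the markers of each tissue in each library. Right, TMM-rescaled TPM (log axis) of fru and of genes used to follow transgenes and genetic background, with fru330035 as red circles, fru105005 as blue triangles and control as grey squares. Oenocyte markers, with Cyp4g1 the most abundant of them, sum to 15720 in each fru330035 library, below control and fru105005. The gut sum is highest in 1 library of fru105005, and w is lowest and y highest in the fru330035 libraries.

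Genes that follow transgenes or the genetic background separated the lines. The eye pigment transporter gene w, a copy of which marks many transgenes, stood at 10.4 and 11.2 in the fru330035 libraries, 137 and 137 in the fru105005 libraries and 66.0 and 65.3 in control, a log2 fold change of -3.64 (SE 0.031, edgeR adjusted p = 1.19e-10). The body pigment gene y was a DEG in the other direction at low level, 1.26 and 1.46 in the fru330035 libraries and 0.0890 and 0.168 in the fru105005 libraries, with 3.40 (SE 0.31). Of the 7 such genes tested 4 were called higher and 3 lower. The pigment genes ry and v had -1.15 (SE 0.051) and -0.57 (SE 0.05). Stock collections place hairpins at fixed landing sites, and tio and Msp300 lie at sites used by such collections. The gene tio stood at 3.56 and 3.60 in the fru330035 libraries, 1.31 and 1.19 in the fru105005 libraries and 2.31 and 1.95 in control, with 1.53 (SE 0.074, edgeR adjusted p = 7.49e-07), its paralog tsh had 0.36 (SE 0.084), and Msp300 stood at 27.4 and 26.4 in the fru330035 libraries, 18.4 and 18.2 in the fru105005 libraries and 16.4 and 16.2 in control, with 0.56 (SE 0.03). The part of the background in the differences of other genes was not tested.

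DEGs were spread over the large chromosome arms. They made up 2.33% of tested genes on 2L, 2.34% on 2R, 2.53% on 3L and 2.01% on 3R, but 0.962% on X (18 of 1872) and 1.27% on chromosome 4 (1 of 79), beside 2.06% of all genes. Runs of at least 3 tested neighbours, all DEGs of one direction, numbered 4 higher, with 13 genes, and 2 lower, with 7 genes, and held relatives of one family in most cases. The runs higher in fru330035 were CecA1, CecA2, CecB and CecC on 3R, Acp53C14a, Acp53C14b and Acp53Ea on 2R, CG42481, CG43147 and the sex peptide gene SP on 3L, and CG31872, CG18284 and CG17097 on 2L. The runs lower in fru330035 were Hsp70Ba, Hsp70Bbb, Hsp70Bb and Hsp70Bc on 3R and the ejaculatory bulb genes Sfp60F, EbpII and Ebp on 2R. Among genes called at 2-fold or more, the runs included hig with Cyp4p2, Cyp4p1 and Cyp4p3, and CG3588 with CG14421 and CG14422, so genes beside the most raised ones were called higher as well, CG14421 with an adjusted p of 0.055 from edgeR without replicate 2 of fru330035. There Cyp4p1 stood at 56.7 and 51.9 in the fru330035 libraries and 26.6 and 24.8 in the fru105005 libraries, with 1.10 (SE 0.059), and Cyp4p3 at 8.22 and 8.95 in the fru330035 libraries and 2.86 and 3.06 in the fru105005 libraries, with 1.56 (SE 0.088).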

How the data were processed

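The authors trimmed reads with fastp 0.22.0, aligned them with Bowtie2 to the dme6 genome and estimated counts per gene with RSEM 1.2.31. The annotation version and strand setting were not given in the sources used here. Expected counts, as deposited by the authors, come from RSEM without normalization. The deposited TPM values are the authors' abundances, and the deposited TMM table is a signal of TPM multiplied by 1 factor per library. Of 13986 identifiers, 13983 had a symbol and position in the BDGP6.54 annotation.

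Expected counts were rounded to whole numbers. The 4 libraries were filtered with filterByExpr (minimum count 10, minimum total 15), scaled by TMM and tested with glmQLFit and glmQLFTest of edgeR 4.0.16 in R 4.3.3, with Benjamini-Hochberg adjustment over 11738 genes. SE is the absolute log2 fold change divided by the square root of F. Intervals of count ratios and the floor of 3 counts per library cover counting error only. Scripts were tested on simulated data. Limma 3.58.1, DESeq2 1.42.0, Python 3.11.15 and matplotlib 3.10.9 were also used. Replicates differed by more than sampling noise (chi-square per degree of freedom 2.39 in fru330035 and 5.87 in fru105005).

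The comparison, members and 44 gene lists were chosen with earlier results of these data known. Named were fru, the 15 largest rises and 15 largest falls among DEGs with at least 50 counts in each library of the higher line, all tested genes of the steps of hydrocarbon synthesis except acyl-CoA reductases, background genes, runs of neighbouring DEGs, and up to 4 called members per list by size of fold with a mean of 50 counts. Members of runs at 2-fold, such as Cyp4p1, Cyp4p3, CG14421 and CG3588, were named after their values were seen. Lists are described by counts and medians, with no test of a list. Alternatives tried were leaving out each library, a block for replicate number, other count filters, scaling by library size with or without Cyp4g1, DESeq2, the exact test of edgeR, dispersions estimated from 10 libraries, a 2-fold threshold, unadjusted p, and limma on the TMM table (log2, with 1 or 0.1 added).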

Additional observations from a re-analysis of the deposited data

How the results depend on the processing

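The log2 fold change of fru stayed between 0.82 and 1.56 and past the threshold in every alternative run. DEGs numbered 112 in place of 242 with limma on log2 of TMM values plus 1 (54 higher, 58 lower), 882 at a 2-fold threshold (470 higher, 412 lower), and the higher DEGs numbered 219 with library size alone and 83 when every library had to hold 10 counts. With library size alone 6264 genes were called higher and 1516 lower. Leaving out 1 library at a time, with the lone library assumed to vary like the other pair, gave 165 to 363 DEGs, 84 to 204 higher and 77 to 202 lower, and 5232 to 6764 called genes, 2629 to 3389 higher and 2532 to 3380 lower. Replicate numbers were not treated as pairs in the main fit, since the labels name no shared batch. The deviations of same-numbered libraries from their line's mean correlated at 0.02 over 11738 genes. With 2 libraries per line and counting noise in low genes, that value cannot exclude pairing. With the replicate block the counts were 275 DEGs (155 higher, 120 lower) and 6801 called genes, fru had a log2 fold change of 1.24, and 6558 of the 6640 calls were kept in the same direction.

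Of the 202 other genes named, 183 kept their sign and their side of the threshold in every alternative run. The signs of CG31141, CG5326, CG9747 and Desat2, not called with TMM, turned when 1 library was left out. Under library size alone, log2 fold changes turned to 0.04 for Baldspot, 0.32 for CG5326, 0.23 for Cyp4g15, 0.041 for Hml, 0.17 for SREBP, 0.26 for kar and 0.12 for spidey, since that scaling moved the median of all genes from 0.01 to 0.33.

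Depth limits genes with few counts, and a fold against 0 counts is a lower bound only. Since each line is 1 stock with 2 libraries, no value here separates the hairpin from the insertion, the background or the dissection. Causes of the differences between alternatives other than scaling were not tested.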
